A study of Bos taurus with 16 samples.

Results

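The genes described here encode components of the complement system: the C1q chains C1QA, C1QB and C1QC, the components C2 and C3, complement factors B and D (CFB, CFD), properdin (CFP) and the C1 inhibitor (SERPING1). They were chosen by symbol, and the counts of all RefSeq accessions of a gene were summed. Counts were obtained for 8 of the 9 genes among 20629 features in all, and SERPING1 was not analysed here. Their depths differed widely. Over all libraries C1QC had 100658 counts, CFP 47698, CFB 27827, C1QA 4961 and C2 668, whereas C1QB had 30, CFD 5 and C3 4.

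Complement is a cascade of plasma proteins that tags microbes and damaged cells for uptake and can lyse them. The classical pathway starts when C1q, built from the A, B and C chains, binds antibody or other ligands, after which C2 provides the protease of the C3 convertase. The alternative pathway uses CFB as its protease and CFD to activate CFB, and CFP stabilises the convertase. The liver secretes most circulating complement proteins, but in mammals C1q chains are made largely by macrophages and dendritic cells, and CFP by myeloid cells.

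RNA was sequenced from 16 libraries, 7 with the label treatment and 9 with the label control. Per the labels' protocols, each came from cells aspirated from the dominant follicle of a lactating Holstein cow at 63 ± 3 days after calving, drawn from a cohort of 45 cows. All cows of the cohort had a synchronised cycle, with gonadotropin-releasing hormone and prostaglandin F2α given before aspiration, and those with metritis had received the antibiotic ceftiofur. The series title concerns effects on granulosa cells that persist after uterine disease, but the labels do not say what treatment stands for, and they give no age beyond lactation. Nor do they tie libraries to cows, and the p-values therefore rest on the spread from library to library, part of which may be technical. The sample field for tissue reads blood, while the protocols describe granulosa cells, which line the follicle around the oocyte.

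Library totals ran from 8111862 to 14348753 counts. A count of 0 allows up to 3 counts, a level between 0.212 and 0.375 CPM (the count of a gene scaled to 1000000 transcript counts of its library). Such limits cover counting error only. The libraries fell into separate kinds by INHA, the inhibin alpha subunit made by granulosa cells. In 7 leukocyte-rich libraries (treatment 1, 2 and 3 and control 1, 5, 6 and 9) INHA lay between 0.404 and 111 CPM, and in 9 granulosa-rich libraries (treatment 4, 5, 6 and 7 and control 2, 3, 4, 7 and 8) between 1759 and 3041 CPM. CD14, a monocyte receptor, ran the other way, at 1859 to 4031 CPM in leukocyte-rich and 5.32 to 332 CPM in granulosa-rich libraries. CSF1R, the receptor for macrophage colony-stimulating factor, had 1355 to 3081 CPM in leukocyte-rich and 3.57 to 143 CPM in granulosa-rich libraries. PTPRC, the common leukocyte antigen, had 118 to 312 CPM in leukocyte-rich and 6.35 to 98.0 CPM in granulosa-rich libraries, and CYP19A1, the aromatase of granulosa cells, had 1.08 to 1027 CPM in leukocyte-rich and 276 to 28580 CPM in granulosa-rich libraries. CD163, a macrophage receptor, had 2.70 to 18.5 CPM in leukocyte-rich and 0 to 1.53 CPM in granulosa-rich libraries, and CD3E, part of the T cell receptor complex, had 41.6 to 389 CPM in leukocyte-rich and 2.06 to 70.6 CPM in granulosa-rich libraries. The kinds overlapped widely for the B cell gene CD79A, at 1.00 to 78.1 CPM in leukocyte-rich and 0.102 to 66.8 CPM in granulosa-rich libraries, and for S100A8 of neutrophils and monocytes, at 0 to 736 CPM in leukocyte-rich and 0 to 171 CPM in granulosa-rich libraries. The summed level of the erythroid markers stayed between 0.111 and 42.8 CPM in every library, with HBA and ALAS2 under 1 CPM in both kinds. PF4, a platelet gene, had 27.6 to 1752 CPM in leukocyte-rich and 0.915 to 15.6 CPM in granulosa-rich libraries. The part of blood in either kind was not tested. Because these are bulk samples, fewer cells of a type and less RNA per cell cannot be told apart, here and below.

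Of the C1q chains, C1QA and C1QC had counts in all 16 libraries. C1QA, the A chain, had 19.7, 46.0 and 145 CPM in the treatment leukocyte-rich libraries 1, 2 and 3, against 62.4, 76.8, 12.2 and 27.2 CPM in control libraries 1, 5, 6 and 9. In granulosa-rich libraries it had 16.0, 4.68, 6.13 and 4.41 CPM in treatment libraries 4, 5, 6 and 7, against 0.159, 4.71, 1.27, 2.27 and 2.05 CPM in control libraries 2, 3, 4, 7 and 8. The highest leukocyte-rich library was treatment 3 and the lowest of all was control 2, where the level was below that of 3 counts. The kinds overlapped through 2 values, treatment 4 among the granulosa-rich and control 6 among the leukocyte-rich libraries, and the mean on the log2 CPM scale was 3.81 higher in the leukocyte-rich kind.

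C1QC, the C chain, had 294, 467 and 4004 CPM in treatment leukocyte-rich libraries 1, 2 and 3, against 567, 1429, 45.5 and 503 CPM in control libraries 1, 5, 6 and 9. Its levels in granulosa-rich libraries were 661, 248, 183 and 119 CPM in treatment 4, 5, 6 and 7, against 5.16, 233, 32.9, 103 and 55.2 CPM in control 2, 3, 4, 7 and 8. Here too treatment 3 was highest and control 2 lowest, but the kinds overlapped more: control 6, a leukocyte-rich library, lay below 7 of the 9 granulosa-rich libraries, and treatment 4, a granulosa-rich library, lay above 5 of the 7 leukocyte-rich ones. The mean log2 CPM of C1QC was 2.41 higher in leukocyte-rich libraries.

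C1QB, the B chain, stood apart from its partners. It had 0, 4 and 10 counts in treatment leukocyte-rich libraries 1, 2 and 3, against 5, 2, 2 and 2 counts in control 1, 5, 6 and 9. The treatment granulosa-rich libraries 4, 5, 6 and 7 had 2, 0, 3 and 0 counts, and each of the 5 control granulosa-rich libraries had 0. Its highest level was 0.844 CPM, in the library that was also highest for C1QA and C1QC. C1QB did not pass the filter on low counts in any comparison. Counts of its A and C partners in the same libraries reached 1724 and 47458, and whether reads of C1QB were assigned to one of the 8200 transcripts without a gene name was not tested. In the RefSeq gene table (assembly ARS-UCD2.0) C1QA and C1QC are neighbours and C1QB follows after 1 gene with no symbol of its own, and none of the 3 overlap.

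**Figure D1:**
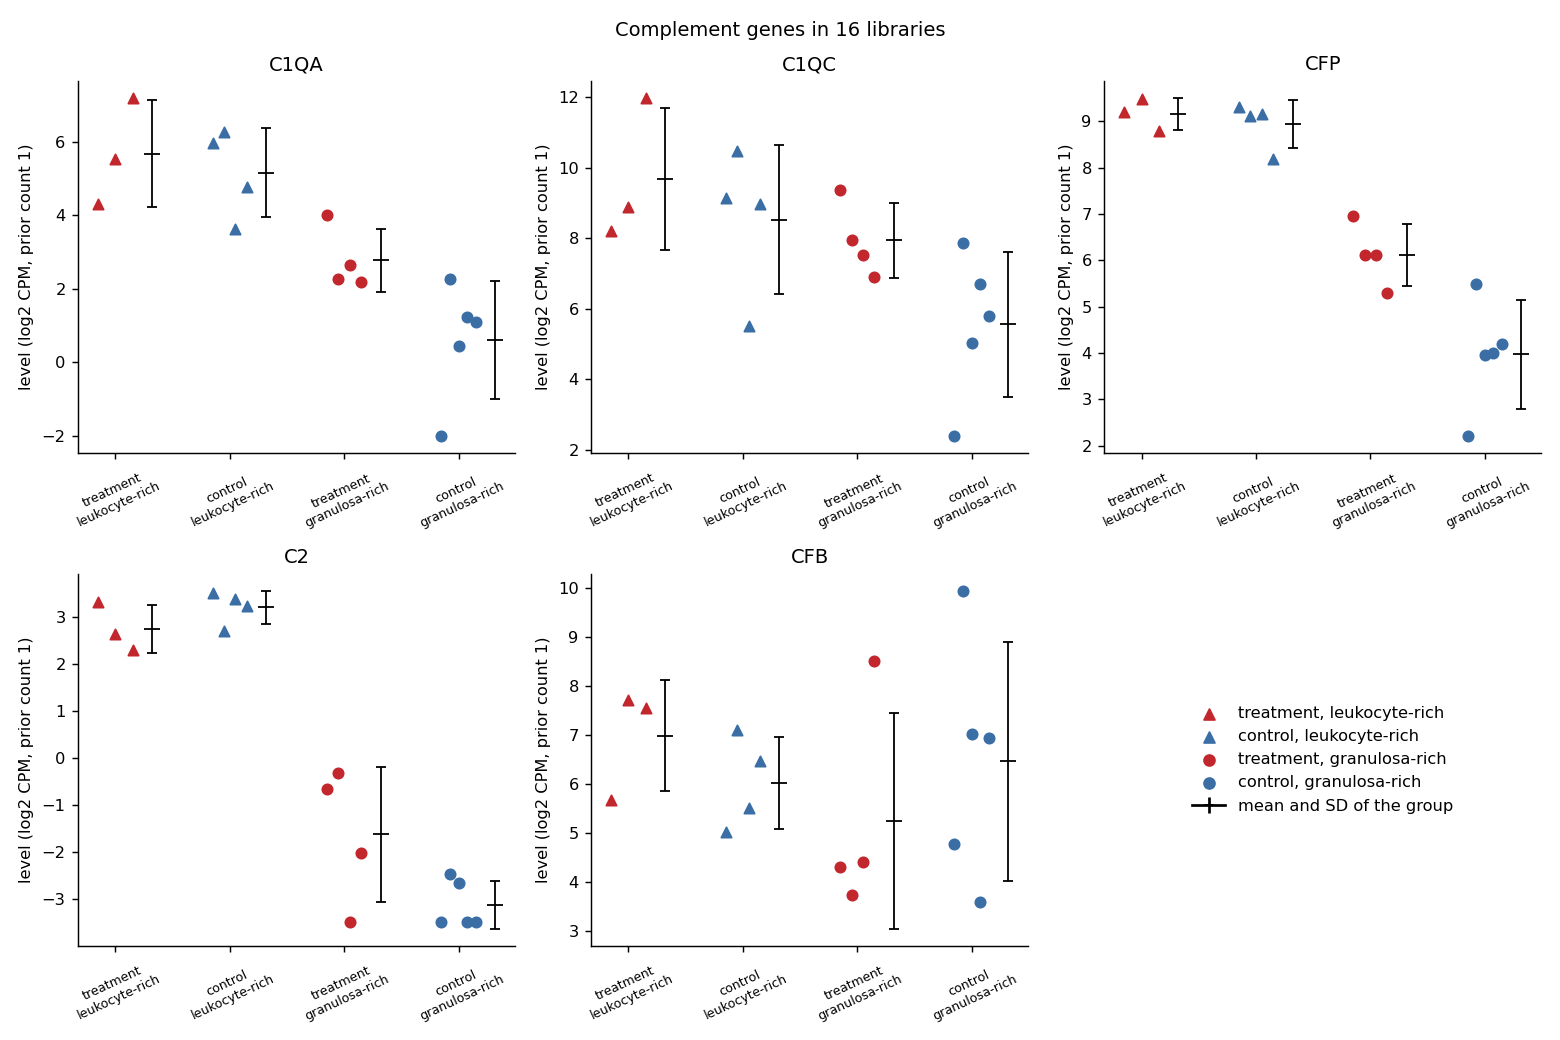
Levels of the 5 complement genes with a mean of at least 1 CPM, as log2 CPM with a prior count of 1; each point is a library, and bars are the mean and SD of the 3 treatment and 4 control leukocyte-rich libraries (triangles) and the 4 treatment and 5 control granulosa-rich libraries (circles). CFP and C2 separate the kinds of library completely, C1QA and C1QC overlap, and the CFB levels of the leukocyte-rich libraries lie within the wider range of the granulosa-rich ones.

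The ratio of C1QC to C1QA counts was not constant. Over the leukocyte-rich libraries it lay between 3.73 and 27.5 with a median of 14.9 and a coefficient of variation of 53.4%, and over the granulosa-rich libraries between 25.8 and 53.1 with a median of 32.5 and a coefficient of variation of 28.8%. Treatment 3 had the highest ratio among leukocyte-rich libraries, 27.5 (exact 95% counting interval 26.2 to 28.9), and control 6 the lowest, 3.73 (3.11 to 4.49). These intervals do not overlap; they cover counting error only, and the spread of the ratio between repeat libraries of 1 sample was not measured. In granulosa-rich libraries treatment 5 had the highest ratio, 53.1 (39.7 to 72.7), and control 4 the lowest, 25.8 (16.2 to 44.0), with intervals that overlap. Control 2, with 2 C1QA counts, could be placed only between 8.64 and 274. Within leukocyte-rich libraries treatment 3 was highest and control 6 lowest both in the ratio and in C1QC. C1QC is the numerator of the ratio, and C1QA had the same highest and lowest libraries, so this says nothing particular to C1QC. Both genes are counted on a single accession, so the ratio does not depend on how accessions were summed. The plot of the ratio by library shows the kinds side by side: 1 leukocyte-rich library, treatment 3, reached the range of the granulosa-rich libraries.

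**Figure D2:**
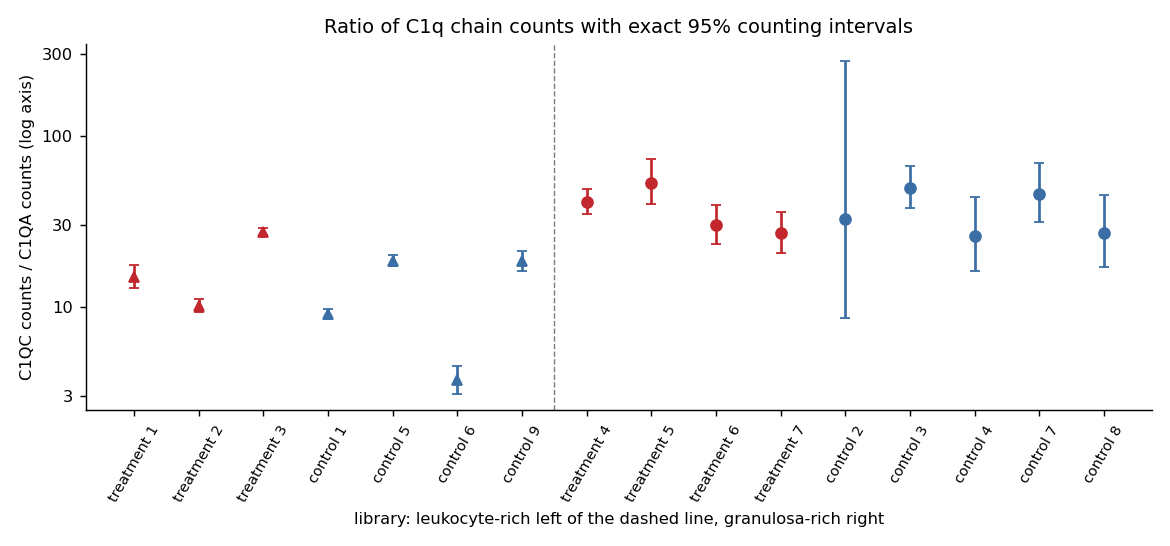
C1QC counts divided by C1QA counts in each library on a log axis, with exact 95% counting intervals; leukocyte-rich libraries lie left of the dashed line and granulosa-rich libraries right of it, treatment in red and control in blue. The leukocyte-rich ratios run from 3.73 to 27.5 and the granulosa-rich ratios from 25.8 to 53.1.

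C2, the protease shared by the classical and lectin pathways, had 9.90, 6.14 and 4.89 CPM in treatment leukocyte-rich libraries 1, 2 and 3, against 11.4, 6.47, 10.4 and 9.37 CPM in control 1, 5, 6 and 9. In granulosa-rich libraries it had 5, 7, 0 and 2 counts in treatment 4, 5, 6 and 7, against 0, 1, 1, 0 and 0 counts in control 2, 3, 4, 7 and 8. The kinds did not overlap: the lowest leukocyte-rich library had 4.89 CPM and the highest granulosa-rich library 0.712 CPM. C2 was the steadiest of these genes among leukocyte-rich libraries after CFP, with a coefficient of variation of 29.7% against 25.5% for CFP. C3, the central component on which all pathways converge, had 1 count in each of treatment 7, control 7, control 6 and control 9 and 0 elsewhere. All of its levels were under the limit of 3 counts, so that no difference in C3 could be seen in these counts. Whether reads of C3 were assigned to a transcript without a gene name was not tested.

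Among the genes of the alternative pathway, CFB had 51.2, 211 and 187 CPM in treatment leukocyte-rich libraries 1, 2 and 3, against 32.4, 137, 45.7 and 88.6 CPM in control 1, 5, 6 and 9. In the granulosa-rich libraries it had 19.7, 13.3, 21.3 and 365 CPM in treatment 4, 5, 6 and 7, against 27.4, 987, 131, 12.1 and 123 CPM in control 2, 3, 4, 7 and 8. Treatment 7 and control 3 were far above the rest of their groups, and control 3 had the highest level of CFB in the series. The kinds overlapped over most of their range, and the mean log2 CPM differed by 0.52. The granulosa-rich libraries varied more, with a highest level 81.7 times the lowest, against 6.52 times among leukocyte-rich libraries. C2 and CFB, paralogous proteases, are neighbours in the same gene table with no gene between them and no overlap.

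CFP, the stabiliser of the alternative pathway convertase, had 589, 715 and 443 CPM in treatment leukocyte-rich libraries 1, 2 and 3, against 637, 557, 575 and 290 CPM in control 1, 5, 6 and 9. Its levels in granulosa-rich libraries were 124, 69.1, 68.8 and 39.2 CPM in treatment 4, 5, 6 and 7, against 4.52, 45.2, 15.6, 15.9 and 18.2 CPM in control 2, 3, 4, 7 and 8. Every leukocyte-rich library lay above every granulosa-rich one, by 4.11 in mean log2 CPM. CFD, which cleaves CFB, had 1 count in treatment 1, 2 in treatment 2, 1 in treatment 7 and 1 in control 4, all under the limit of 3 counts, and the same question about its reads was not tested.

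CFP and C2, 2 of the 5 genes with a mean of at least 1 CPM, thus had every leukocyte-rich library above every granulosa-rich library, a pattern shown by 10.3% of 11468 features, and none lay entirely below, as 5.25% of features did. C2 met the cut of 1 CPM only through the leukocyte-rich libraries, with a mean of 8.36 CPM there and 0.176 CPM in granulosa-rich libraries. Its separation therefore follows in part from the cut. The kinds were cut on INHA in the same libraries, so the pattern of both genes is a description with no test. Among 37 measured of 48 other listed complement genes, the receptors C3AR1, ITGAM, ITGB2, VSIG4 and C5AR2 and the lectin FCN1 also had every leukocyte-rich library above every granulosa-rich one. C3AR1, the receptor for the C3a fragment, had 213 to 579 CPM in leukocyte-rich and 0.555 to 45.5 CPM in granulosa-rich libraries. ITGAM, the alpha chain of complement receptor CR3, had 403 to 1189 CPM in leukocyte-rich and 0.555 to 140 CPM in granulosa-rich libraries. VSIG4 and ITGB2 are also on the marker lists for macrophages and leukocytes.

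Of the collectins measured, COLEC10, COLEC11 and MBL1 went the other way, and COLEC12 overlapped, with a mean log2 CPM of 0.66 in leukocyte-rich and -0.70 in granulosa-rich libraries. COLEC10, a soluble lectin of the collectin family, had 0 to 0.737 CPM in leukocyte-rich and 1.42 to 17.8 CPM in granulosa-rich libraries. COLEC11 had 0 to 0.147 CPM in leukocyte-rich and 0.220 to 6.58 CPM in granulosa-rich libraries, and MBL1, a mannose-binding lectin, was likewise higher in every granulosa-rich library. The separation of COLEC11 rests on few counts. It had 3 in all leukocyte-rich libraries together, and its lowest granulosa-rich level lay within the range of the limit of 3 counts. CALR, calreticulin, a chaperone that also binds C1q, was the listed receptor with the highest mean level and differed little, at 2459 to 4525 CPM in leukocyte-rich and 1945 to 4023 CPM in granulosa-rich libraries. CFI, the protease that degrades C3b and C4b, overlapped at 11.0 to 201 CPM in leukocyte-rich and 2.03 to 278 CPM in granulosa-rich libraries. The plot of both kinds, ordered by their difference, places C2 and CFP near the top with ITGAM, VSIG4, ITGB2 and C3AR1, and CFB near the middle. Not all receptors lay near the top. CR2, C1QBP and CALR overlapped between the kinds, with differences in mean log2 CPM of 1.73, 0.36 and 0.20.

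**Figure D3:**
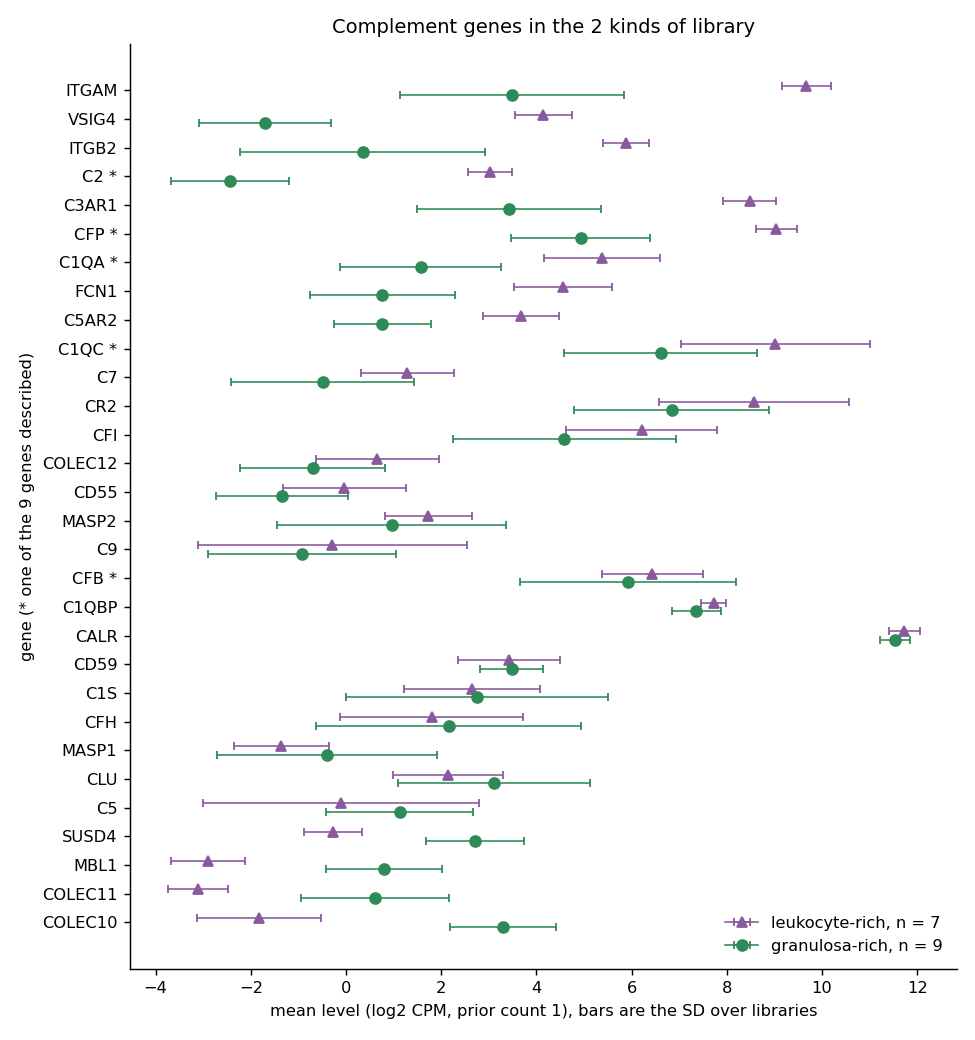
Mean log2 CPM (prior count 1) with the SD over libraries for complement genes in 7 leukocyte-rich libraries (triangles) and 9 granulosa-rich libraries (circles), ordered by the difference of the means; an asterisk marks one of the 9 genes described. C2, CFP, C1QA and C1QC have higher means in the leukocyte-rich kind, by 2.41 or more, and CFB differs by 0.52.

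The label comparison was first made over all 16 libraries. None of the 5 complement genes that passed the filter on low counts was called, nor was any other feature: edgeR's quasi-likelihood test with Benjamini-Hochberg adjustment called 0 of 9653 features (0.0%), and 163 (1.69%) had an unadjusted p under 0.05. DESeq2 and limma-voom also called 0. The log2 fold change of treatment over control was 0.75 ± 1.01 (SE) for C1QA, 1.41 ± 0.95 for C1QC and 0.26 ± 0.93 for CFP, and it was -0.41 ± 1.31 for C2 and -0.47 ± 0.87 for CFB. Each had an adjusted p of 0.9999 by edgeR's quasi-likelihood test. C2 turned to 0.84 when the kind of library was a term of the fit. C1QA and C1QC turned to -0.42 and -0.0084 without treatment 3, and CFB to 0.67 without control 3.

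Within the granulosa-rich libraries C1QA, C1QC and CFP stood at higher levels in treatment than in control, and none passed the test. The median of C1QA was 5.41 CPM in treatment and 2.05 CPM in control libraries, that of C1QC 216 CPM in treatment and 55.2 CPM in control, and that of CFP 68.9 CPM in treatment and 15.9 CPM in control. All 4 treatment libraries exceeded the control median for each of these genes. For CFP 3 of the 4 treatment libraries exceeded every control library, and for C1QA and C1QC 2 did. The groups overlapped because of control 3, the highest control library for all 3 genes. None of the genes had every treatment library above every control library, as 1.18% of 9272 features did, or below, as 0.55% did.

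In the fit of those 9 libraries the log2 fold change was 1.77 ± 0.54 (SE) for CFP, with an unadjusted p of 0.00775 and an adjusted p of 0.9833 by edgeR's quasi-likelihood test. C1QA had 1.69 ± 0.77, with an unadjusted p of 0.0508, and C1QC 1.62 ± 0.83, with an unadjusted p of 0.0792, both again with an adjusted p of 0.9833 by edgeR. Over all features edgeR called 0 of 9272 (0.0%), 433 (4.67%) had an unadjusted p under 0.05 and CFP ranked 66th by p. DESeq2 called 27 features and limma-voom 0, and the lowest adjusted p of these genes by DESeq2 was 0.159, for CFP. A two-sided exact permutation test over the 126 splits, which can give no p below 0.00794, set the mean difference in log2 CPM at 2.15 for CFP (p = 0.0238), 2.16 for C1QA (p = 0.0317) and 2.38 for C1QC (p = 0.0714). These exact p are not adjusted over the 4 complement genes tested in this kind. CFP, C1QA and C1QC rose and fell together over these libraries (r = 0.95 to 0.98), so their results are not separate observations. With each library left out in turn, the fold change stayed between 1.50 and 2.17 for CFP, 1.15 and 2.07 for C1QA and 1.01 and 2.19 for C1QC.

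Monocyte and macrophage markers moved with these values. Their score, the mean log2 CPM over 12 measured of 14 listed markers, was 3.09 ± 0.69 in treatment and 1.48 ± 1.24 in control granulosa-rich libraries (SD, n = 4 and 5). Summed, the 12 markers had 253 to 1172 CPM in treatment and 24.6 to 718 CPM in control libraries, and MS4A7 was under 1 CPM in all. Of the 8 markers that passed the filter in the fit, 7 had a positive fold change and none was called; the fold change of CD68, a lysosomal protein of macrophages, was 2.40 ± 0.78, with an adjusted p of 0.9833 by edgeR. The score was lowest in control 2 and highest in treatment 4, as were C1QA, C1QC and CFP. The direction was not particular to these markers. Of 9 T and NK cell markers in the fit 8 were positive, with a median log2 fold change of 0.65. Of 8 pan-leukocyte markers 7 were positive, with a median of 0.40, against 0.99 for the monocyte and macrophage markers. B and plasma cell markers had 3 positive and 2 negative, with a median of 0.05. The part of any of these cells in the difference was not tested.

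CFB went the other way in the granulosa-rich fit, and its sign rested on control 3. Its log2 fold change was -1.27 ± 1.30 (SE), with an adjusted p of 0.9844 by edgeR's quasi-likelihood test. Without control 3 it was 0.36. Without treatment 7 it kept its sign, at -3.83. The exact permutation test gave a mean difference of -1.22 in log2 CPM (p = 0.452, 126 splits). The epithelium score, over KRT5, KRT14, KRT19, EPCAM and CDH1, was 1.61 ± 2.02 in treatment and 3.77 ± 2.52 in control granulosa-rich libraries (SD, n = 4 and 5), and the summed level of these 5 markers was 21.4 to 316 CPM in treatment and 14.8 to 1931 CPM in control. Both extremes of CFB, treatment 7 and control 3, had the highest summed epithelial level of their group. C2 did not pass the filter in this comparison.

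In the leukocyte-rich libraries none of the 5 complement genes tested was called. The log2 fold change of treatment over control was 0.70 ± 0.83 (SE) for C1QA, 1.40 ± 1.21 for C1QC, -0.45 ± 0.33 for C2, 1.01 ± 0.62 for CFB and 0.16 ± 0.29 for CFP, each with an adjusted p of 0.9996 by edgeR's quasi-likelihood test. It called 0 of 9912 features (0.0%), as did DESeq2 and limma-voom, and 259 (2.61%) had an unadjusted p under 0.05. The treatment libraries overlapped the control libraries for all 5 genes, while 1.99% of features had every treatment library above every control library and 1.85% below. Treatment 3 carried the positive values of the C1q chains: without it, C1QA was at -0.51 and C1QC at -0.79. CFP turned to -0.047 without control 9, its lowest library.

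The exact permutation test over the 35 splits, with a smallest possible p of 0.0286, gave mean differences in log2 CPM of 0.96 for CFB (p = 0.286) and -0.46 for C2 (p = 0.229). Those for C1QA, C1QC and CFP were 0.52 (p = 0.629), 1.15 (p = 0.543) and 0.21 (p = 0.657) by the same exact test. For CFB, 2 of the 3 treatment libraries exceeded every control library. The epithelium score was 2.57 ± 1.20 in treatment and 1.28 ± 1.11 in control leukocyte-rich libraries (SD, n = 3 and 4), summed 57.2 to 419 CPM in treatment and 9.65 to 192 CPM in control, with KRT14 under 1 CPM. The monocyte and macrophage score was 6.57 ± 0.67 in treatment and 6.72 ± 0.42 in control (SD, n = 3 and 4). The theca and stroma score was 3.90 ± 2.37 in treatment and 3.00 ± 1.02 in control. Summed, these markers had 402.5 to 11060 CPM in treatment and 534 to 2330 CPM in control. Granulosa markers summed to 176 to 5789 CPM in treatment and 207 to 499 CPM in control. In the fit 10 of 10 theca and stroma, 10 of 12 granulosa and 4 of 11 monocyte and macrophage markers had a positive fold change. The part of these cells in the values above was not tested.

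**Figure D4:**
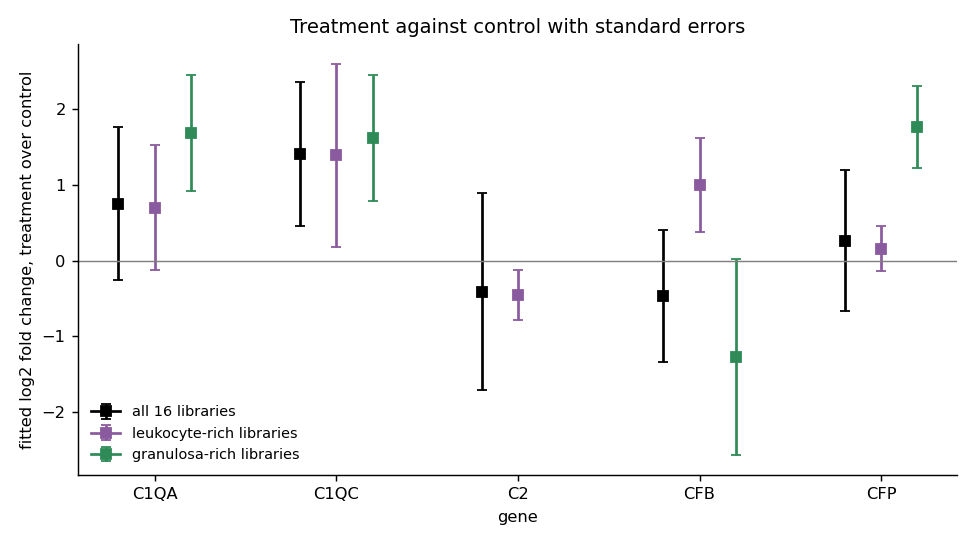
Fitted log2 fold change of treatment over control with its standard error from edgeR's quasi-likelihood fits of all 16 libraries, the 7 leukocyte-rich libraries and the 9 granulosa-rich libraries; C2 did not pass the filter in the granulosa-rich fit. No gene was called in any fit, and CFP in granulosa-rich libraries, at 1.77 ± 0.54, lies farthest from 0 relative to its error.

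Whether the label difference itself differed between the kinds was tested with an interaction term. The effect in granulosa-rich libraries minus that in leukocyte-rich libraries was 1.66 ± 0.69 (SE) on the log2 scale for CFP, with an unadjusted p of 0.0293 and an adjusted p of 0.9109 by edgeR's quasi-likelihood test. For C2 it was 3.44 ± 1.21, with an unadjusted p of 0.0118 and an adjusted p of 0.9109 by edgeR, but this value rests on 16 C2 counts in all granulosa-rich libraries, 14 in treatment and 2 in control. C1QA had 1.00 ± 1.14, C1QC 0.23 ± 1.52 and CFB -2.20 ± 1.68, with the adjusted p at 0.9436 or above by edgeR. The test called 0 of 11468 features (0.0%) and 609 (5.31%) had an unadjusted p under 0.05. The fits of the kinds therefore give different values for CFP, 1.77 and 0.16, without a called difference between them.

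Across granulosa-rich libraries C1QA, C1QC and CFP moved together with the monocyte and macrophage score, which holds none of them. Over the 9 libraries the correlation with the score was Pearson's r = 0.98 and Spearman's rho = 0.97 for C1QA, with exact permutation p of 1.10e-05 and 0.000165. For CFP it was r = 0.98 and rho = 0.98, with exact permutation p of 5.51e-06 and 4.96e-05, and for C1QC r = 0.97 and rho = 0.93, with exact permutation p of 5.79e-05 and 0.00075. Adjusted over the 18 relations computed with scores, the highest of these p was 0.0045, and without control 2 and treatment 4, the libraries farthest from the median score, r was 0.94 for C1QA, 0.94 for CFP and 0.89 for C1QC. The 4 treatment and 5 control libraries are too few for a correlation within a label. CFB had no such relation, with r = -0.02 and an exact permutation p of 0.966. Only the monocyte and macrophage score and the epithelium score were correlated with these genes. Whether the relation is particular to monocyte and macrophage markers was therefore not tested. Control 2 also had the lowest T and NK score of this kind.

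Pairs of these genes showed the same order. The pairs were chosen after the data were seen, so their p-values, here and below, are a description with no test. In granulosa-rich libraries C1QA and C1QC had r = 0.98, C1QA and CFP r = 0.97 and C1QC and CFP r = 0.95, with exact permutation p of 0.000514 or below after adjustment over 16 pairs. By likeness of log2 CPM over the 9 libraries, among 7752 genes with a mean of at least 1 CPM, the nearest gene to C1QA was CTSH, the lysosomal protease cathepsin H (r = 0.99), followed by C1QC and CFP. The nearest to C1QC were C3AR1 (r = 0.99), C1QA and CTSH, and the nearest to CFP were C1QA, C1QC and CTSH. These likenesses are descriptions, since all genes of a library share its depth and its mixture of cells. The nearest genes were also picked as the highest r among 7752 genes, so a high value follows in part from the picking.

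In leukocyte-rich libraries the pattern differed in its values. C1QA and C1QC still had r = 0.94 over 7 libraries (exact permutation p = 0.00556 after adjustment), and r was 0.83 without control 6 and treatment 3. Their correlations with the monocyte and macrophage score were 0.47 and 0.65, with exact permutation p of 0.281 and 0.105. CFP had r = -0.78 with that score (exact permutation p = 0.0248, and 0.0744 after adjustment), with treatment 3 and control 9 having the highest scores and the lowest CFP levels. The differences between the kinds in these correlations were not tested. In this kind the nearest genes, among 7741, were SOCS2 (r = 0.98), SUN2 and ING1 for C1QA, and GJB2 (r = 0.95), RPS24 and SOCS2 for C1QC. For CFP they were ARFIP2 (r = 0.996), SH3BGR and CBX1, and for C2 DNAJC18 (r = 0.98), SMARCB1 and MEA1. Each was picked as the highest r among 7741 genes over 7 libraries, so a high value follows in part from the picking.

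CFB followed epithelial markers. The epithelium score was chosen because genes near CFB in these same libraries were epithelial, so its values are a description with no test. In granulosa-rich libraries its correlation with the epithelium score was r = 0.95 and rho = 0.90, and r was 0.96 without control 3 and control 8. In leukocyte-rich libraries it was r = 0.90 and rho = 0.93, and r was 0.82 without treatment 2 and control 1. With each library left out in turn r lay between 0.93 and 0.98 in granulosa-rich and 0.86 and 0.95 in leukocyte-rich libraries. Its nearest genes were TMPRSS3, PERP and SLPI in granulosa-rich libraries (r = 0.97 each) and KRT15 (r = 0.97), SUOX and NT5C3A in leukocyte-rich libraries. They too were picked as the highest r among all genes compared. SLPI encodes a secreted inhibitor of leukocyte proteases made by epithelia, PERP a desmosomal protein and KRT15 a keratin of basal epithelium.

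Between CFB and its gene neighbour C2 the relation was inverse in leukocyte-rich libraries, with r = -0.94 and rho = -0.96 over 7 libraries (exact permutation p of 0.0108 and 0.00889 after adjustment over 16 pairs). This pair too was chosen after the data were seen, so its p-values are a description with no test. Treatment 2 and treatment 3, the highest libraries for CFB, were among the lowest for C2, and control 1, the lowest for CFB, was the highest for C2. Without treatment 3 and treatment 2 r was -0.93. C2 itself had r = -0.79 and rho = -0.86 with the epithelium score that CFB followed in the same libraries, and the part of these markers in the relation was not tested. C2 spanned only 4.89 to 11.4 CPM, so that the relation covers a narrow range of that gene.

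**Figure D5:**
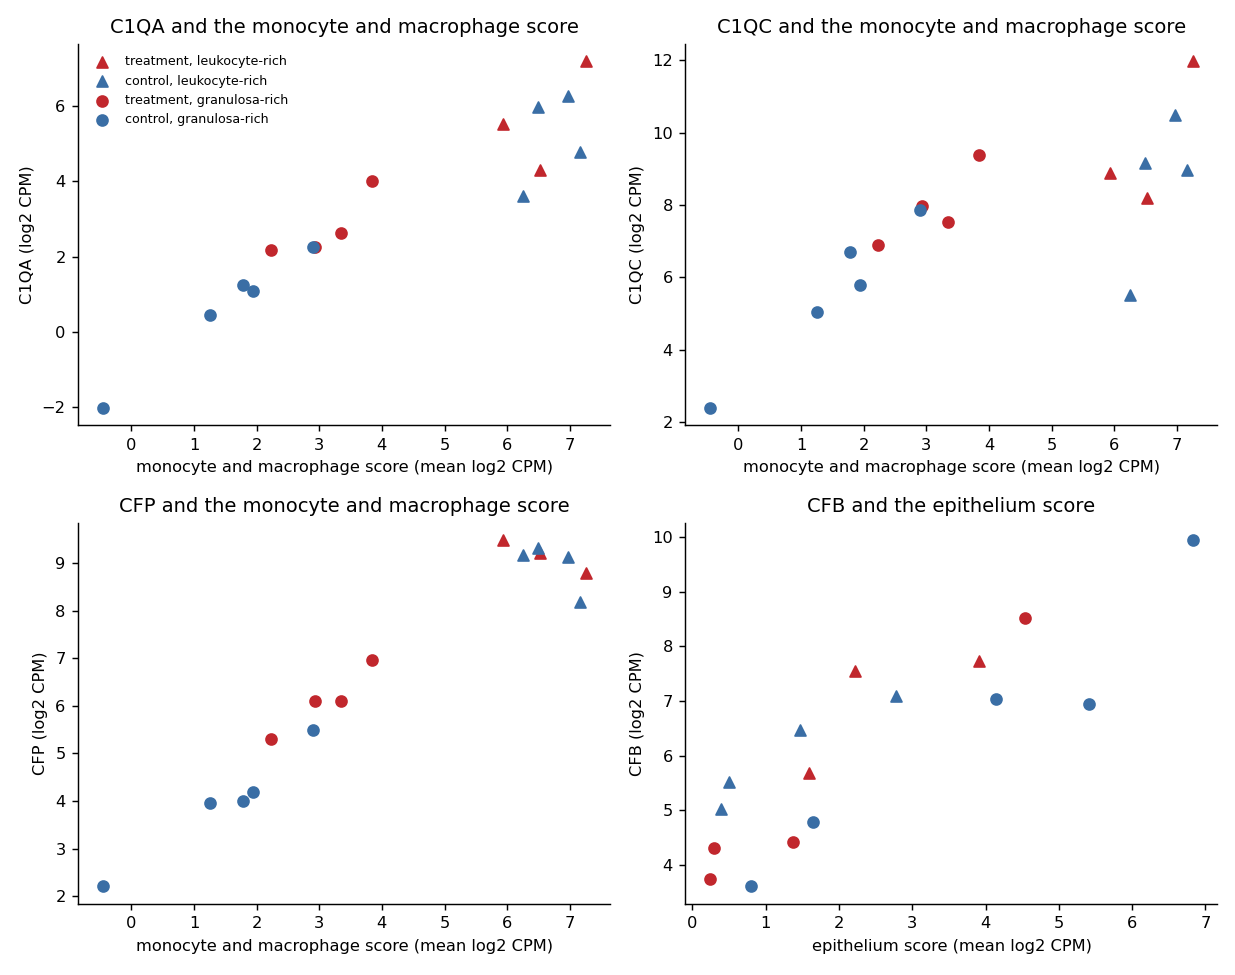
Log2 CPM of C1QA, C1QC and CFP against the monocyte and macrophage score, and of CFB against the epithelium score (both scores are mean log2 CPM over the measured markers); each point is a library. In granulosa-rich libraries (circles) r is 0.98, 0.97 and 0.98 for C1QA, C1QC and CFP, and for CFB r is 0.95 in granulosa-rich and 0.90 in leukocyte-rich libraries (triangles).

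Other genes of the complement system were taken from lists of the classical and lectin pathway, the terminal pathway, receptors and regulators. Of 48 listed genes 37 were measured. In the granulosa-rich fit 21 were tested and 0 called, with 7 positive and 14 negative fold changes and a median log2 fold change of -0.56, beside 0.04 over all features. By list, the classical and lectin pathway had 2 positive and 5 negative, the terminal pathway 0 and 2, the receptors 5 and 2 and the regulators 0 and 5. In the leukocyte-rich fit 21 were tested and 0 called, with 13 positive and 8 negative and a median of 0.35, beside 0.01 over all features. There CD55, a regulator that speeds the decay of the convertases, had the lowest p, at a log2 fold change of 1.97 ± 0.77 (SE) with an unadjusted p of 0.0351 and an adjusted p of 0.9996 by edgeR's quasi-likelihood test, from 76 counts in treatment and 27 in control libraries. Over the 7 leukocyte-rich libraries CD55 had a median of 0.737 CPM and a highest level of 4.22 CPM. The part of the highest library in its fold change was not tested. The medians of the lists had opposite signs in the 2 kinds, a difference that was not tested.

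In the granulosa-rich fit the listed genes with the lowest p were COLEC11, at a log2 fold change of -1.98 ± 0.86 (SE), and COLEC10, at -1.06 ± 0.58, for the classical and lectin pathway. For the terminal pathway they were C5, at -1.34 ± 0.90, and C7, a component of the membrane attack complex, at -0.66 ± 1.23. The receptors C3AR1, at 1.11 ± 0.86, and ITGAM, at 1.43 ± 1.15, were positive like the C1q chains and CFP. The regulators SUSD4, at -0.82 ± 0.59, and CD59, the inhibitor of the membrane attack complex, at -0.49 ± 0.46, were negative. Of these only COLEC11 had an unadjusted p under 0.05, at 0.0426, and all had an adjusted p of 0.9833 or above by edgeR's quasi-likelihood test. C1S, the protease that cleaves C2 and C4 and the classical pathway gene with the highest mean level, was at -1.90 ± 1.33 in this fit and -1.58 ± 0.89 in the leukocyte-rich fit. C5, the terminal pathway gene with the highest mean level, was at 3.52 ± 1.53 in the leukocyte-rich fit, with 0.169, 7.79 and 17.4 CPM as the lowest, median and highest treatment value against 0, 0.191 and 2.42 CPM in control. CALR and CFI were at -0.16 ± 0.22 and -1.21 ± 1.17 in the granulosa-rich fit and at -0.16 ± 0.23 and 1.15 ± 0.82 in the leukocyte-rich fit, with none called.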

How the data were processed

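Per the labels' protocols, 200 ng of RNA (integrity number 7 or above) went through poly(A) selection and 12 cycles of amplification. The kit leaves the strand unmarked, so that overlapping and antisense genes share reads that cannot be assigned. The submitters' processing notes name Bowtie2, cutadapt and SAMtools; for versions, genome build and multiply mapping reads, the entry is not given in the sources used here. The deposited files hold whole-number counts per RefSeq accession, not normalized, and an accession without a line was taken as 0.

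Of 27306 accessions, 133 genomic records with 0.712 to 1.92% of a library's counts were left out. RefSeq's gene table (ARS-UCD2.0, names and gene order only) matched 18973 of 27173 transcripts when versions were ignored, with 96.3% of the transcript counts; 8200 unmatched transcripts were kept as features of their own. CPM is relative to the transcript counts of the library, and log2 CPM uses a prior count of 1. No 2 libraries were duplicates: over all pairs, chi-square per gene was 71.3 or more. A library was granulosa-rich with INHA above 1000 CPM and leukocyte-rich under 200 CPM.

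The main test was edgeR 4.0.16 (R 4.3.3; TMM scaling, filter by group, robust quasi-likelihood fit, Benjamini-Hochberg over all features tested, threshold 0.05), and it was checked on simulated counts. The changes planted in those counts were larger than the fold changes of CFP, C1QA and C1QC, and no mixture of cells was simulated. The check therefore cannot show that changes of that size would be called here. The standard error of a log2 fold change is its size over the root of the F value. Correlations and mean differences were tested by exact permutation (scipy 1.17.1), two-sided; ratio intervals are exact Clopper-Pearson at 95%. Alternatives were other scalings, filters and thresholds, DESeq2 1.42.0, limma-voom (limma 3.58.1), the replicate number as a block, the kind of library as a term, only accessions whose version matched, and each library left out.

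The genes, lists and tests were chosen with earlier results of these data known. The epithelium score, the pairs of complement genes and the leave-one-out correlations were chosen after seeing the data. By rule, the text names all 9 complement genes, 9 marker genes of the library kinds, from each other complement list any gene called, the one with the highest mean CPM and the 2 with the lowest p in the granulosa-rich fit, and the 3 genes most like each complement gene in each kind. ITGB2, VSIG4, C5AR2, CR2, C1QBP, FCN1, MBL1, CD68, COLEC12, CD55, PF4, HBA and ALAS2 were named after their values were seen.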

Additional observations from a re-analysis of the deposited data

Results flagged for a closer look

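In 23 groups of 4 to 10 libraries, 2 values stood apart from the other libraries of their group, and chance alone marks about 1 group in 20. CFB had 365 CPM in treatment 7, far above the other 3 treatment granulosa-rich libraries, which had 13.3 to 21.3 CPM. On the log2 CPM scale the gap took up 0.859 of the range of the group. CFP had 290 CPM in control 9, below the other 3 control leukocyte-rich libraries, which had 557 to 637 CPM, with a gap of 0.83 of the range in log2 CPM.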

How the results depend on the processing

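Over 166 alternatives of the fold changes that left out no library, 161 kept the direction and 5 turned it. In all 16 libraries C1QC was at -0.048 by DESeq2, and C2 was at 0.60 by limma-voom, 1.04 with the replicate block and 0.84 once the fit had a term for the kind of library; CFB in granulosa-rich libraries was at 0.57 with the replicate block. The cause was not tested. In granulosa-rich libraries DESeq2 called 27 features in place of 0, none of them one of the 9 complement genes; the lowest adjusted p of these genes over all alternatives was 0.159. With 1 library left out in turn the range over all 16 libraries was -0.42 to 1.30 for C1QA, -0.0084 to 2.14 for C1QC, -1.09 to 0.67 for CFB and -0.10 to 0.61 for CFP. In granulosa-rich libraries it was -3.83 to 0.36 for CFB, in leukocyte-rich libraries -0.51 to 1.15 for C1QA, -0.79 to 2.17 for C1QC and -0.047 to 0.29 for CFP, and for the difference between the kinds -0.49 to 2.45 for C1QC. No feature was called in any of these fits. The labels do not say that replicate numbers pair libraries. The correlation of same-numbered libraries was positive for the 3 numbers whose libraries are of 1 kind (0.365 to 0.641) and negative for the other 4 (-0.657 to -0.348), so this check reads the kind of library and does not settle pairing. The replicate block called 0 features in all 16 and in the granulosa-rich libraries. In granulosa-rich libraries only numbers 4 and 7 occur under both labels. The block fit there, with its CFB value, rests on those libraries alone, and its 0 calls carry little weight. The leukocyte-rich libraries share 1 number only, so that no block was possible there. Low counts limit C1QB, C3 and CFD in all libraries and C2 in granulosa-rich ones; whether depth or the assignment of reads sets them was not tested.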
